A study of Homo sapiens with 2 samples.

Results

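Copper reaches its enzymes through a small set of transporters and chaperones, and platinum drugs have been linked to the same proteins. The values below describe 6 genes of this set, SLC31A1, SLC31A2, ATP7A, ATP7B, ATOX1 and CCS, in carboplatin resistant and in carboplatin and docetaxel resistant cells. They were chosen by name, as every probe on the array that carries one of these gene names, which gave 6 of 30238 gene names and 9 of 41000 probes. SLC31A1 had 4 probes and each of the other genes 1 probe.

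A2780 is an established human ovarian carcinoma cell line. A2780CBN was derived from it by selection to 22.2 µM carboplatin, a platinum drug. A2780CBNDXL was derived by selection in carboplatin together with docetaxel, a taxane, and its label reads 8.02 µM. By the study's account this figure is the inhibitory concentration of carboplatin measured in the line, not a selection dose. The study describes selection and maintenance at a lower carboplatin dose, with docetaxel far below carboplatin in concentration. Each resistant line was compared with A2780CC, A2780 cells carried in culture beside it, and a control of this kind was kept for each line. The doses were raised gradually, which by the study's account gives resistant populations in place of a few clones. The RNA of 3 isolations of a line made up 1 pooled sample, which was hybridized with the control RNA to 4 two-colour arrays. Arrays 1 and 3 were forward labelled, with the resistant line in Cy5, and arrays 2 and 4 reverse labelled. The arrays repeat 1 sample, so that the SD given below covers labelling and hybridization error, and no test across cultures was possible. The A2780DXL line was not analysed here.

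SLC31A1 encodes CTR1, the high-affinity importer that brings copper across the plasma membrane, and SLC31A2 encodes CTR2, a related protein of endosomes and lysosomes. Inside the cell the chaperone ATOX1 hands copper to ATP7A and ATP7B, the ATPases mutated in Menkes and Wilson disease, which load copper onto enzymes of the secretory route and export its excess. The chaperone CCS carries copper to the superoxide dismutase SOD1. In ovarian cancer cells these proteins have been studied because cisplatin and carboplatin can enter through CTR1 and can be bound or moved by the chaperones and the ATPases.

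The probes read short stretches of the messenger RNA. The probes of SLC31A1, CCS and ATOX1 that read coding sequence are shown, because the results below turn on the importer and on the chaperones that share its copper. Coordinates are those of the array design, on NCBI36, and the capitals mark the stop codon of ATOX1, up to which its probe is printed (44 of its 60 bases). The SLC31A1 stretch is at chr9:115060804-115060863, plus strand, the CCS stretch runs across an intron from chr11:66129602-66129770, plus strand, and the ATOX1 stretch belongs to the probe at chr5:151106063-151106122, minus strand.
SLC31A1: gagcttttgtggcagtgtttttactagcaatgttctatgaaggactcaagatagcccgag
CCS: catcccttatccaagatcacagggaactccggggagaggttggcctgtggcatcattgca
ATOX1: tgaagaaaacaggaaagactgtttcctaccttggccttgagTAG

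On the 8 arrays no spot was saturated, and 59.8 to 67.5% of the spots stood well above background per channel. The log2 ratios of forward and reverse arrays correlated at 0.581 to 0.611 in A2780CBN and at 0.727 to 0.739 in A2780CBNDXL. The epithelial markers KRT8, KRT18 and EPCAM were above background in both lines, with log2 ratios of -0.37, 1.05 and 2.07 in A2780CBN and of 0.18, 0.51 and 1.67 in A2780CBNDXL, as was PAX8 at a low signal, while WT1, MUC16 and the leukocyte marker PTPRC were not above background in either channel of either line. The fibroblast collagen gene COL1A1 was above background on all arrays, with a log2 ratio of 2.04 ± 0.20 in A2780CBNDXL and 0.99 ± 0.08 in A2780CBN, and the part of other cells in the values below was not tested. All 6 copper genes were well above background in both channels on all 8 arrays.

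Against their controls, none of the 6 genes was changed in A2780CBN and 2 were lower in A2780CBNDXL. The rule for a change asked for a mean log2 ratio of 1 or more in size (2-fold), for the same sign on the 4 arrays of a line, and for a channel that stood well above background on each of these arrays. By this rule 12.6% of the genes tested were changed in A2780CBN and 17.0% in A2780CBNDXL, while 9.23% of the genes tested were lower in A2780CBNDXL. The genes changed in A2780CBNDXL were SLC31A1, the importer, and SLC31A2, the related gene of endosomes and lysosomes. In RNA of whole cultures, fewer cells with a transcript and less transcript per cell cannot be told apart.

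**Figure D1:**
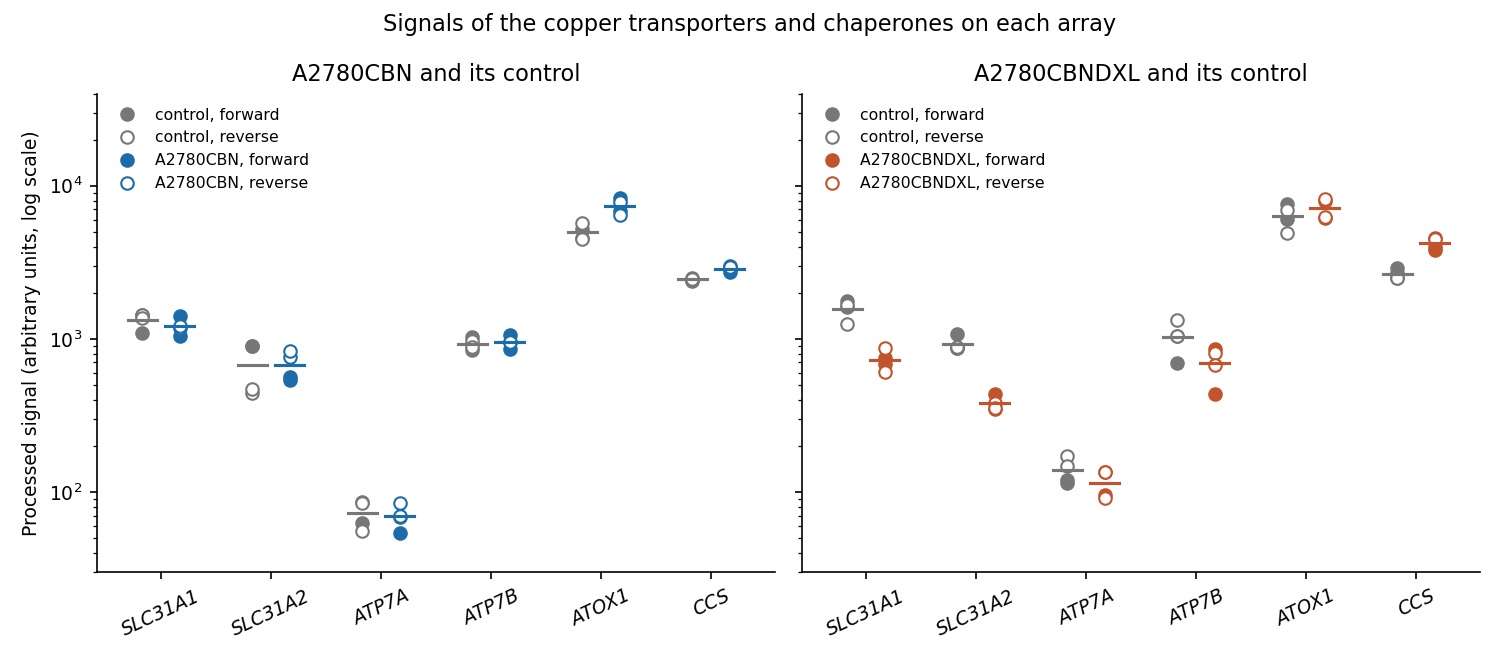
Processed signal (log axis, arbitrary units) of each gene's brightest probe on each array, for the control (grey) and the resistant line (colour), with forward arrays filled, reverse arrays open and bars at the mean of 4 arrays. SLC31A1 and SLC31A2 of A2780CBNDXL lay below their control on every array, whereas in A2780CBN the signals of both genes overlapped with the control; signals of different genes come from different probes and cannot be compared.

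SLC31A1, the copper importer, had lower signals in A2780CBNDXL than in its control on every array. At its brightest probe, at chr9:115065928-115065987, the signals of A2780CBNDXL on arrays 1 to 4 were 689, 871, 746 and 610, and those of the control were 1616, 1655, 1754 and 1246. The highest signal of the line was below the lowest of the control. The log2 ratios were -1.23, -0.93, -1.23 and -1.03, with a mean of -1.11 ± 0.15 (SD, n = 4 arrays), or 46.5% of the control. This change exceeded the spread between the arrays.

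The other SLC31A1 probes gave the same direction in A2780CBNDXL. The coding probe printed above, nearest to the start of the transcript, had a mean log2 ratio of -1.39 ± 0.30, with single values from -1.69 to -1.09. The probes further downstream, at chr9:115062718-115062777 and chr9:115062840-115062899, had mean log2 ratios of -0.88 ± 0.22 and -1.34 ± 0.35. All 16 values of the 4 probes on the 4 arrays were below 0, between -1.70 and -0.68, and 3 of the 4 probes passed the 2-fold rule. The mean over the probes was -1.18.

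In A2780CBN the values of the importer lay near 0. The signals of the brightest SLC31A1 probe were 1408, 1178, 1044 and 1212 in the line and 1429, 1420, 1090 and 1372 in the control, and the ranges overlapped. Its mean log2 ratio was -0.13 ± 0.11. The means of the other probes were -0.12, -0.04 and 0.05, and 12 of the 16 single values were below 0, within a range from -0.39 to 0.39.

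SLC31A2, the related transporter of endosomes and lysosomes, was lower in A2780CBNDXL with little spread. Its probe at chr9:114966061-114966120 gave signals of 433, 379, 347 and 354 in the line and 1080, 869, 873 and 880 in the control, without overlap. The log2 ratios were -1.32, -1.20, -1.33 and -1.31, and their mean of -1.29 ± 0.06 corresponds to 40.9% of the control.

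In A2780CBN the SLC31A2 ratio depended on the labelling direction. The log2 ratios were -0.67 and -0.74 on the forward arrays and 0.79 and 0.83 on the reverse arrays, which cancelled to a mean of 0.05 ± 0.88. The signals were 562, 762, 539 and 831 in the line and 893, 441, 903 and 467 in the control. Each RNA was therefore brighter when it carried one dye, Cy3, than when it carried the other. Each labelling direction lay 0.76 from the mean on the log2 scale, a size reached by 1.51% of the genes tested in this line, and in A2780CBNDXL the same probe lay 0.03 from its mean. The balanced mean of SLC31A2 in A2780CBN has the largest SD among the values of the 6 genes in both lines.

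**Figure D2:**
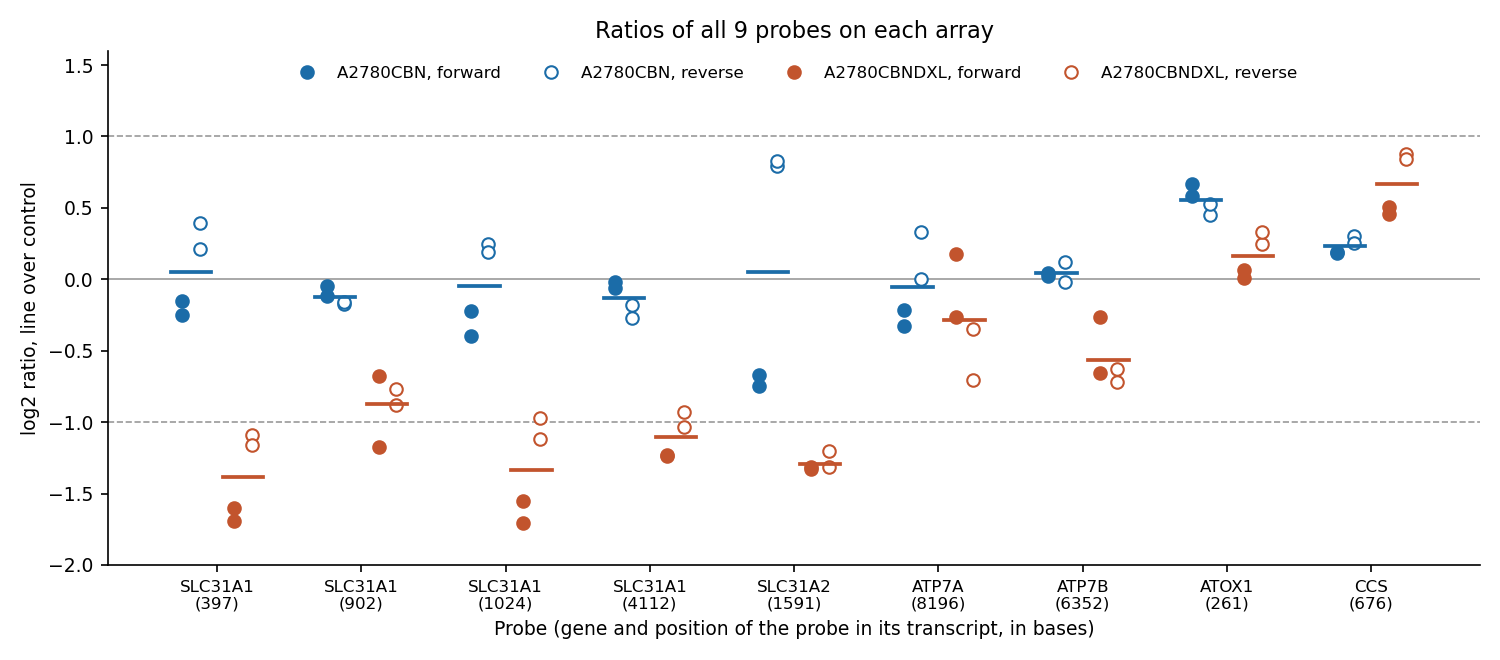
log2 ratio of resistant line over control for all 9 probes on each array, for A2780CBN (blue) and A2780CBNDXL (orange), with forward arrays filled, reverse arrays open, bars at the mean of 4 arrays and dashed lines at the 2-fold limits. The 4 SLC31A1 probes of A2780CBNDXL lay between -1.70 and -0.68, and SLC31A2 of A2780CBN split by labelling direction, from -0.74 to 0.83.

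The lower ratios of SLC31A1 and SLC31A2 in A2780CBNDXL stayed near the 2-fold limit. With raw signals processed by normexp with an offset of 50 and loess in place of the authors' processing, the mean log2 ratio was -0.90 for both genes, and against the control channel of the A2780CBN arrays it was -0.99 for SLC31A1 and -0.85 for SLC31A2, so that neither passed the rule under these settings.

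The exporters ATP7A and ATP7B were not changed by the 2-fold rule in either line. ATP7B, whose probe lies at chr13:51405036-51405095, had log2 ratios of -0.66, -0.72, -0.27 and -0.63 in A2780CBNDXL, all below 0, with a mean of -0.57 ± 0.20. In A2780CBN its values lay around 0, between -0.02 and 0.12, with a mean of 0.04 ± 0.06. The signals of ATP7B in A2780CBNDXL, 438 to 861, overlapped with those of the control, 691 to 1326, although the ratio within each array had the same sign.

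ATP7A gave dim signals in all channels and ratios of both signs. Its probe at chrX:77192257-77192313 had signals of 54.3 to 84.6 in A2780CBN and 55.4 to 86.5 in its control, and of 91.2 to 134.9 in A2780CBNDXL and 114.2 to 171.6 in its control. Its log2 ratios on arrays 1 to 4 of A2780CBN were -0.33, 0.00, -0.21 and 0.33, and A2780CBNDXL gave 0.17, -0.35, -0.26 and -0.70. The means, -0.05 ± 0.29 and -0.29 ± 0.36, were within the spread between arrays.

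The chaperones ATOX1 and CCS had log2 ratios above 0 on all arrays of both lines, under the 2-fold limit. ATOX1, which delivers copper to the ATPases, gave 0.67, 0.45, 0.59 and 0.52 in A2780CBN, with a mean of 0.56 ± 0.09, or 147.2% of the control. Its signals there were 6443 to 8289 in the line and 4478 to 5689 in the control, without overlap. In A2780CBNDXL the ATOX1 ratios were 0.06, 0.25, 0.01 and 0.33, with a mean of 0.16 ± 0.15, and the signals overlapped with those of the control.

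CCS, the chaperone for SOD1, had its higher mean in A2780CBNDXL. Its log2 ratios were 0.45, 0.88, 0.50 and 0.84 in A2780CBNDXL, with a mean of 0.67 ± 0.22, and 0.19, 0.30, 0.18 and 0.26 in A2780CBN, with a mean of 0.23 ± 0.06. In A2780CBNDXL the signals of the line, 3826 to 4568, lay above those of the control, 2485 to 2896. In A2780CBN the signals were 2721 to 2982 in the line and 2395 to 2508 in the control, also without overlap.

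With a limit of 1.5-fold in place of 2-fold, CCS joined SLC31A1 and SLC31A2 in A2780CBNDXL, which made 3 of the 6 genes against 33.4% of the genes tested. None of the 6 genes passed 1.5-fold in A2780CBN, where 27.1% of the genes tested did.

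The lines were not hybridized together, and the comparison between them was made through channel signals scaled between arrays, over 4 pairs of arrays matched for slide and dye. With a mean difference of at least 2-fold and 1 sign in all pairs, the resistant lines differed in 16.5% of the genes tested and the controls in 4.71%, and none of the 6 genes was among either. At 1.5-fold, SLC31A1, SLC31A2, ATP7A and ATP7B passed between the line channels, where 31.1% of the genes did, and ATP7A passed between the control channels, where 13.2% did.

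For SLC31A1 the difference lay mainly in the line channels, whereas for SLC31A2 the control channels differed as well. The line signal of SLC31A1 was lower in A2780CBNDXL than in A2780CBN in all 4 pairs, by log2 differences of -0.87, -0.73, -0.58 and -1.26 with a mean of -0.86 ± 0.29, while the control differences had both signs and a mean of 0.11 ± 0.44. For SLC31A2 the line differences were -0.19, -1.25, -0.72 and -1.44, with a mean of -0.90 ± 0.56. Its control was higher on the A2780CBNDXL arrays in 3 of 4 pairs, with a mean difference of 0.44 ± 0.40. Part of the lower SLC31A2 ratio in A2780CBNDXL thus stood beside a brighter control. The split of SLC31A2 by labelling direction in A2780CBN enters its single pair differences in both channels.

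ATP7A showed the largest control difference of the 6 genes. On the A2780CBNDXL arrays its signal was higher in all 4 pairs in the control channel, by 0.91 ± 0.27, and in the line channel, by 0.68 ± 0.38. The ratio of each line to its own control did not show this difference. Against the control of the other line's arrays the log2 ratio of ATP7A was -0.96 in A2780CBN and 0.63 in A2780CBNDXL.

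ATP7B, ATOX1 and CCS had control differences of 0.00, 0.21 and -0.03. The line differences were -0.61 ± 0.42 for ATP7B, below 0 in all 4 pairs, -0.19 ± 0.23 for ATOX1, below 0 in 3 pairs, and 0.41 ± 0.18 for CCS, above 0 in all 4 pairs.

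**Figure D3:**
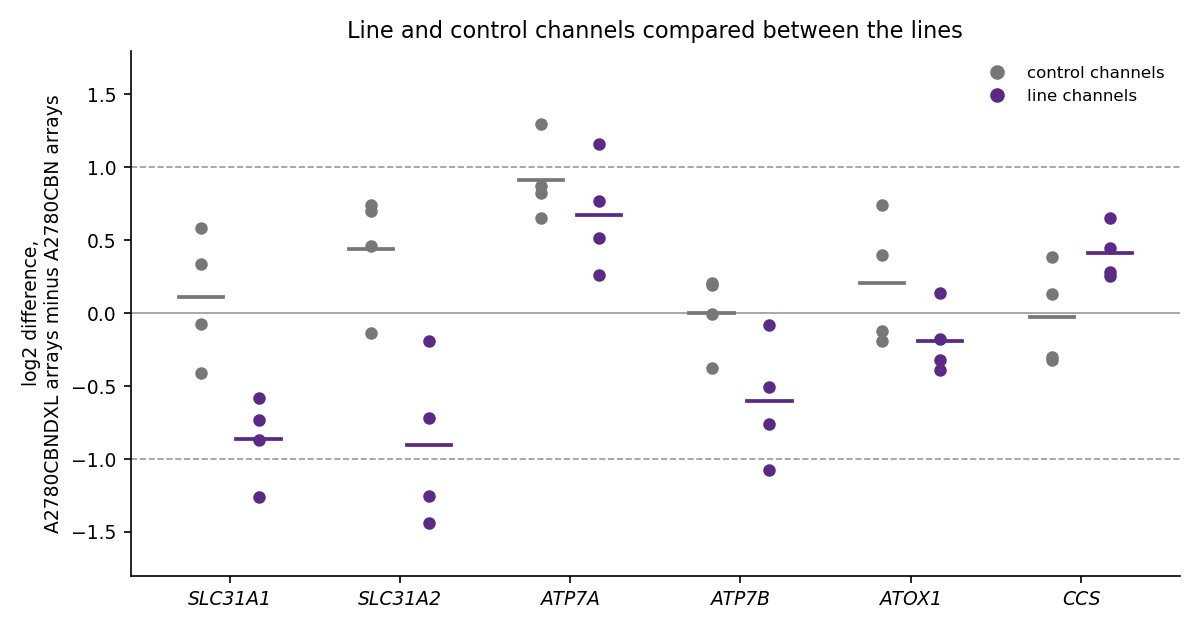
Difference of log2 signals between A2780CBNDXL arrays and A2780CBN arrays for the control channels (grey) and the line channels (purple), with a point for each of 4 pairs of arrays matched for slide and dye, bars at the mean and dashed lines at 2-fold. The line channel of SLC31A1 lay below 0 in all 4 pairs around a control near 0, and ATP7A was above 0 in both channels, at 0.68 and 0.91.

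Further genes were read in 4 lists, of which 3 hold copper-handling genes and 1 holds the LRRC8 channel subunits, which are anion channels linked to platinum uptake. The enzymes of the secretory route held 6 of the 7 changed list genes in A2780CBN, and with the LRRC8 subunits 11 of 13 in A2780CBNDXL. A total of 39 list genes had probes on the array. In A2780CBN 32 could be tested and 7 were changed, 6 higher and 1 lower, and in A2780CBNDXL 34 could be tested and 13 were changed, 5 higher and 8 lower. The medians over the tested genes were 0.08 and -0.23, beside -0.06 and 0.04 over all genes tested on the arrays. Over all genes, 8.01% were higher and 4.57% lower in A2780CBN, and 7.72% were higher and 9.23% lower in A2780CBNDXL.

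The copper enzymes of the secretory route receive their copper from ATP7A or ATP7B. Of 10 enzymes tested, 5 were higher and 1 lower in A2780CBN, and 5 were higher and 3 lower in A2780CBNDXL. The lysyl oxidases, which cross-link collagen and elastin, gave a log2 ratio of 1.98 ± 0.30 for LOX in A2780CBN, where the control was above background on 1 of 4 arrays, and of 3.56 ± 0.22 in A2780CBNDXL. LOXL3 had 1.06 ± 0.24 and 1.30 ± 0.06, and LOXL4 had 2.92 ± 0.25 and 2.65 ± 0.17. LOXL1 was lower in A2780CBNDXL, at -1.19 ± 0.22, and had 0.39 ± 0.39 in A2780CBN.

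SOD3, the extracellular superoxide dismutase, was higher in both lines, at 2.71 ± 0.32 and 2.63 ± 0.13. PAM, which amidates peptide hormones, was higher in A2780CBN, at 1.45 ± 0.25, and lower in A2780CBNDXL, at -2.44 ± 0.16. The ferroxidase CP was lower in both lines, and no array showed its signal in the resistant line well above background. Against the lowest signal well above background, the bound on the processed signals was 1.85-fold lower in A2780CBN and 4.37-fold lower in A2780CBNDXL. With normexp and loess the ratios of CP lay nearer to 0, as given below. HEPH, a related ferroxidase, was higher in A2780CBNDXL, at 1.61 ± 0.35, and had -0.28 ± 0.17 in A2780CBN, and its other probe gave 4.86 and 0.34.

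Several of these enzyme values changed with the control or with the processing of the signals. In A2780CBN the log2 ratio of LOX turned to -1.04 against the other line's control, whose LOX signal was 173.8 against 20.6, and PAM had 0.48 and LOXL3 0.46 there, while in A2780CBNDXL LOX had 6.57, SOD3 3.65, PAM -1.47 and LOXL1 -0.51 against the other control. With normexp and loess LOX had 0.27, LOXL3 0.78, LOXL4 1.22, SOD3 0.71 and CP -0.25 in A2780CBN, and LOX had 2.41, LOXL1 -0.33, LOXL4 0.92, SOD3 1.14, HEPH 0.61 and CP -0.46 in A2780CBNDXL.

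Of the genes that deliver copper to mitochondria, none of 7 tested was changed in A2780CBN and 1 of 8 in A2780CBNDXL. COX11, needed to build the copper site of cytochrome c oxidase, was lower there, at -1.12 ± 0.29, and had -0.04 ± 0.33 in A2780CBN. The 4 other COX11 probes gave -1.08 to -0.63 in A2780CBNDXL, and the ratio was -0.79 against the other control. COX17, the copper carrier of the intermembrane space, had -0.19 ± 0.22 in A2780CBN and -0.23 ± 0.31 in A2780CBNDXL.

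The list of regulators and copper-binding proteins had 1 changed gene in each line. GLRX, a glutaredoxin that acts on thiols, was higher in A2780CBN, at 1.43 ± 0.06 (0.39 against the other control), and had 0.09 ± 0.44 in A2780CBNDXL (1.13 against the other control). CUTC, a cytosolic copper-binding protein, was lower in A2780CBNDXL, at -1.06 ± 0.18 (-0.57 against the other control and -0.96 with normexp and loess), and had 0.22 ± 0.22 in A2780CBN. SOD1, which receives copper from CCS, had 0.25 ± 0.18 in A2780CBN and -0.22 ± 0.03 in A2780CBNDXL. The metal-responsive factor MTF1 had -0.44 ± 0.51 in A2780CBN and -0.31 ± 0.29 in A2780CBNDXL, and its other probe gave 0.28 and 0.02.

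The LRRC8 proteins form volume-regulated anion channels, which can pass cisplatin and carboplatin. In A2780CBN none of 4 tested subunits was changed, beside 12.6% of all genes tested. In A2780CBNDXL 3 of 4 were lower, beside 9.23% of all genes tested. The list was chosen with earlier results of these data known. LRRC8D, a subunit of channels permeable to platinum drugs, had log2 ratios of -2.49, -2.40, -2.13 and -2.44 in A2780CBNDXL, with a mean of -2.37 ± 0.16. In A2780CBN its mean was -0.20 ± 0.09. The line channel of LRRC8D was lower in A2780CBNDXL than in A2780CBN in all 4 pairs, by a mean difference of -2.07 ± 0.29, and the control channels differed by 0.10 ± 0.23.

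LRRC8B had a mean of -1.52 ± 0.22 on the log2 scale in A2780CBNDXL, beside -0.21 ± 0.12 in A2780CBN. Its 2 other probes gave -2.19 ± 0.28 and -1.71 ± 1.61 in A2780CBNDXL, and -0.29 ± 0.09 and -0.85 ± 0.79 in A2780CBN. The last probe had the line of A2780CBNDXL below background and the control above it on 3 arrays. Its single ratios in A2780CBNDXL ran from -3.25 to 0.18. LRRC8C was not well above background in A2780CBNDXL on any array, with a mean signal of 15.2 against 135.2 in the control. The bound on its processed signals was 5.58-fold lower. In A2780CBN it had 0.16 ± 0.17 with both channels above background. Its control was brighter on the A2780CBNDXL arrays, by a mean difference of 1.35 ± 0.60 that passed the 2-fold rule, and against the other control LRRC8C had -1.19 in A2780CBN and -1.89 in A2780CBNDXL. LRRC8A, the subunit that every such channel needs, had -0.33 ± 0.27 in A2780CBN and -0.35 ± 0.19 in A2780CBNDXL. Its other probe gave -0.28 and 0.32, so the sign in A2780CBNDXL differed between the probes. LRRC8B, LRRC8C and LRRC8D lie beside each other on chromosome 1, with probes from 89830956 to 90173744. In A2780CBNDXL LRRC8B and LRRC8D had -1.14 and -1.89 with normexp and loess and -1.88 and -2.27 against the other control, while LRRC8C had -0.46 with normexp and loess.

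**Figure D4:**
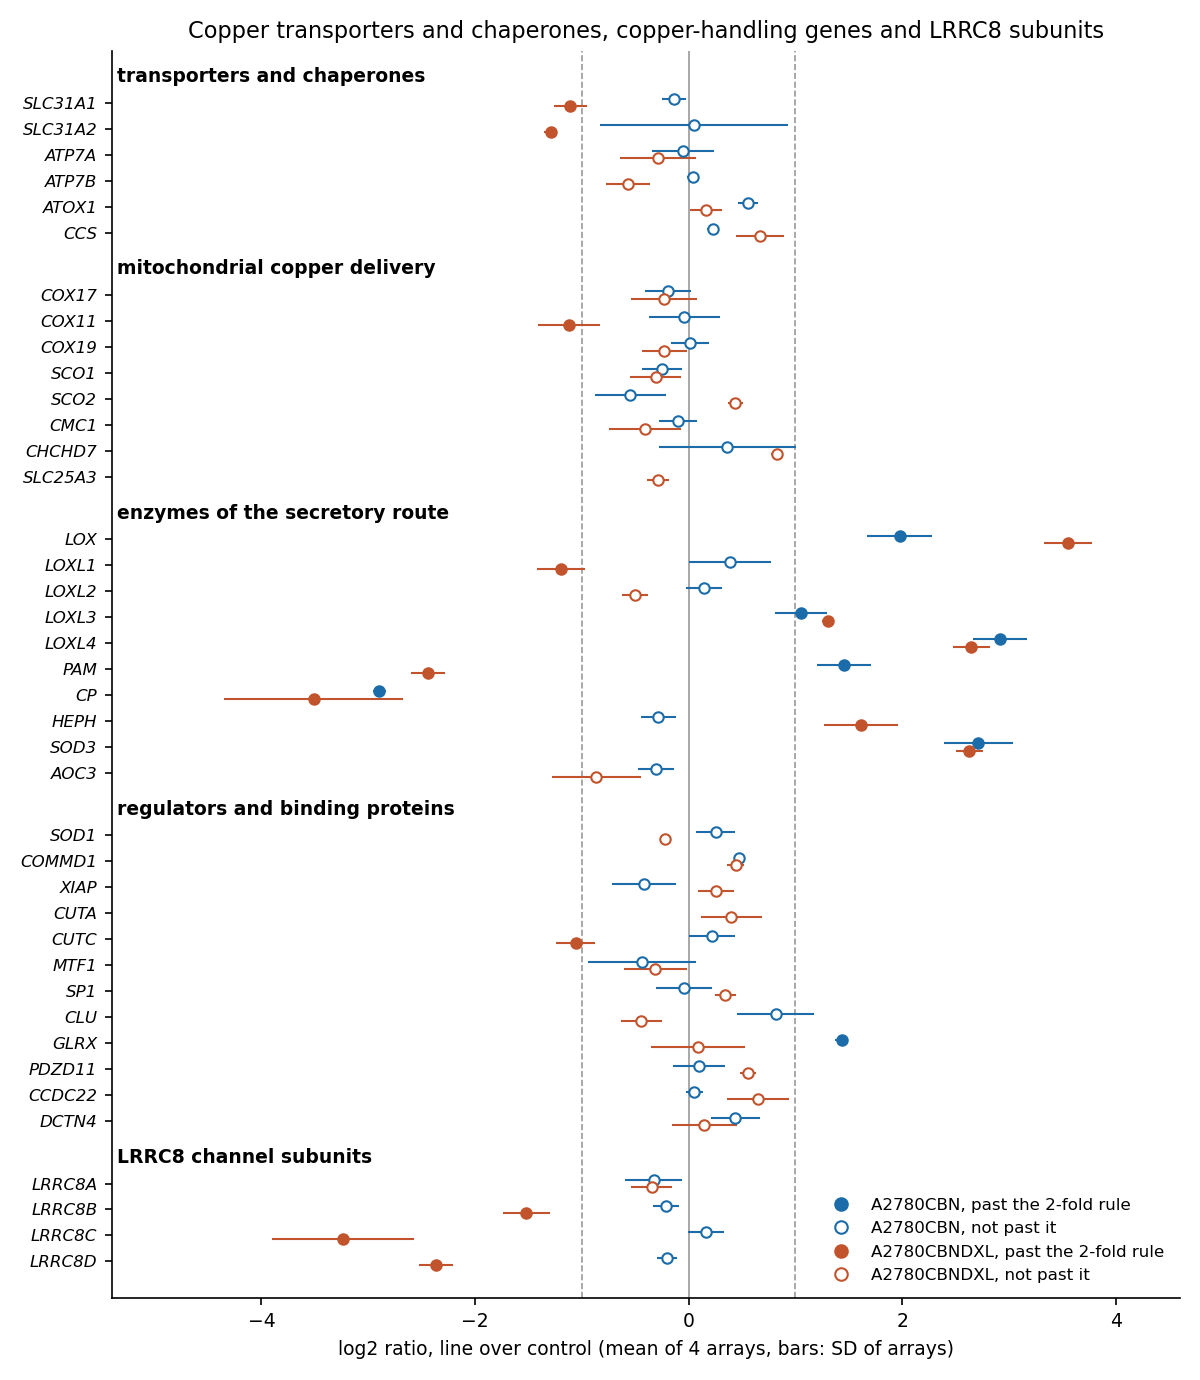
Mean log2 ratio of resistant line over control (bars, SD of 4 arrays) for the 6 genes and the tested genes of 3 copper-handling lists and of the LRRC8 subunits, in A2780CBN (blue) and A2780CBNDXL (orange), filled where the 2-fold rule was passed. SLC31A1, SLC31A2, LRRC8B, LRRC8C and LRRC8D of A2780CBNDXL lay below -1 and those of A2780CBN between -0.21 and 0.16; the ratios of CP in both lines and of LRRC8C in A2780CBNDXL have the line below background, and LOX in A2780CBN has a control above background on 1 array.

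SLC31A1 and SLC31A2 lie near each other at 9q32, and their neighbours did not share the lower ratio as a group. On a scale with the first SLC31A1 probe at 0 and positions in kb, the SLC31A2 probe is at -94.7. FKBP15, whose probe is between them, had log2 ratios of 0.04 ± 0.19 in A2780CBN and 0.24 ± 0.14 in A2780CBNDXL. CDC26, 8.50 kb downstream of the first SLC31A1 probe, had -0.26 ± 0.11 and -0.71 ± 0.35. Of 21 other genes with probes within 500 kb of either transporter, 14 were tested in A2780CBN and none was changed. Over all genes tested in A2780CBN, 12.6% were changed. In A2780CBNDXL 16 were tested, of which C9orf110, C9orf109 and RGS3 were higher, at 1.38, 2.79 and 1.25, and KIAA1958 was lower, at -1.26. Over all genes tested in A2780CBNDXL, 7.72% were higher and 9.23% lower. The median of the tested neighbours in A2780CBNDXL was 0.27, with 12 of 16 above 0.

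**Figure D5:**
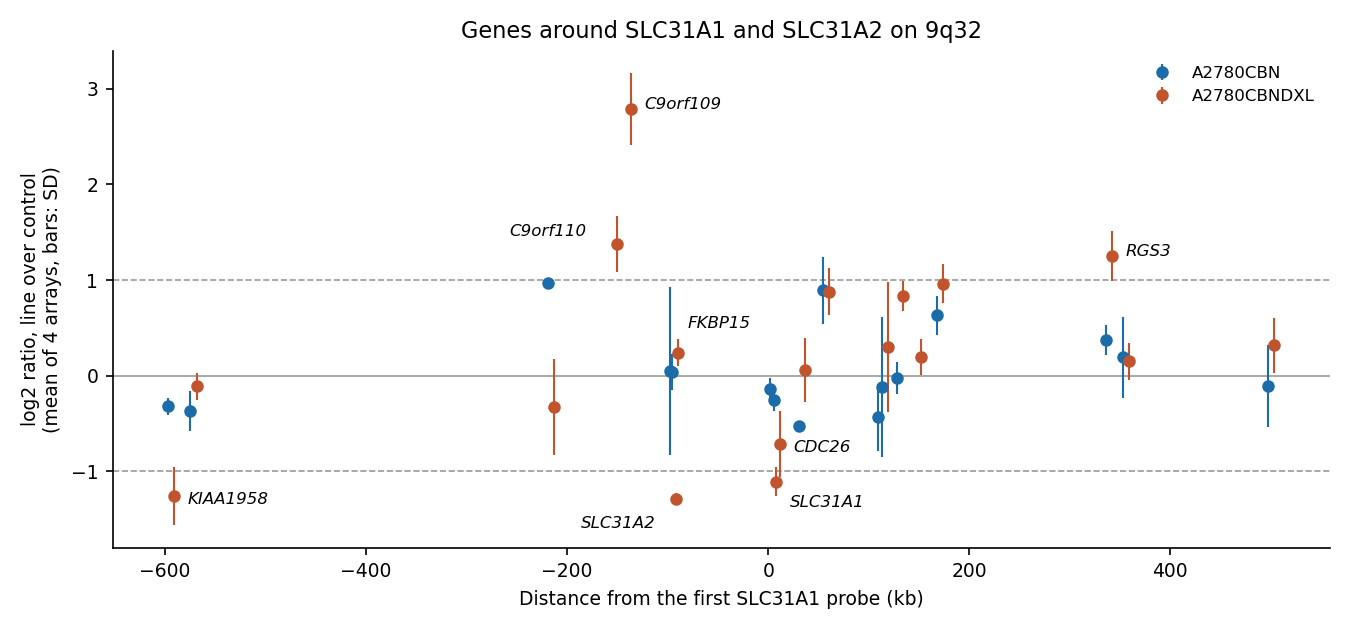
Mean log2 ratio (bars, SD of 4 arrays) of the tested genes around SLC31A1 and SLC31A2 against their distance in kb from the first SLC31A1 probe, for A2780CBN (blue) and A2780CBNDXL (orange), with dashed lines at 2-fold. SLC31A2 and SLC31A1 of A2780CBNDXL lay at -1.29 and -1.11, with FKBP15 between them at 0.24.

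The promoter of SLC31A1 holds matches to GGGCGG, the core letters bound by zinc finger factors such as SP1, which is known to act on this gene. The 250 bases before its start in RefSeq, on GRCh38.p14 at chr9:113221294-113221543, plus strand, are shown with the matches in capitals.
SLC31A1 promoter: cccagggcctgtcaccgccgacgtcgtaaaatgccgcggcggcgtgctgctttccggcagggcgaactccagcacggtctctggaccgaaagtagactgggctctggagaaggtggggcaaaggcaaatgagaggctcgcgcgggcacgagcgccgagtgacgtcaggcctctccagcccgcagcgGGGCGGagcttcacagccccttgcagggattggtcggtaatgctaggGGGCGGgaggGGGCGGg
GGGCGG or its complement CCGCCC, with overlaps counted, occurred 3 times in this window, 1 time in that of ATOX1 and 0 times in those of ATP7A and CCS, and ATP7B had 3 matches at each of a pair of neighbouring starts and 0 at its other start. At least 1 match was held by 42.6% of 35116 promoter windows of this length, and at least 3 matches by 13.9%. The core of the metal response element, TGCACNC or TGCGCNC on either strand, had 0 matches in SLC31A1 and in ATP7A, 2 matches each in ATOX1 and CCS, and 2, 0 and 0 at the ATP7B starts, and 24.8% of all windows held at least 1. SLC31A2 is not shown. SP1 itself had log2 ratios of -0.04 ± 0.26 in A2780CBN and 0.35 ± 0.09 in A2780CBNDXL. Its other probe gave 0.31 and 0.97.

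The genes whose ratios were most like those of SLC31A1 over the 8 arrays, by the root mean square difference of the log2 ratios among 16131 genes above background, were CPOX, at 0.10, PLAUR, at 0.11, and LOC390705, at 0.12. For SLC31A2 they were EXOC6, at 0.19, ANGPTL2, at 0.23, and SLC38A6, at 0.24. SLC31A1 and SLC31A2 differed from each other by 0.63. ATP7B was the nearest of the other 5 genes to SLC31A1, at 0.45. By distance from SLC31A1, ATP7B ranked 708 and SLC31A2 2457 of 16131 genes. Single arrays were compared, so the split of SLC31A2 by labelling direction in A2780CBN enters all of its distances. Averaged over both directions, A2780CBN had -0.13 for SLC31A1, 0.05 for SLC31A2 and 0.04 for ATP7B. In A2780CBNDXL these means were -1.11, -1.29 and -0.57. These distances cover 2 samples measured on 8 arrays and describe the arrays alone.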

How the data were processed

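The deposited files were written by Agilent Feature Extraction for 8 two-colour arrays of 2 samples, in version 10.7.1.1 (arrays 1 and 2, slide 1) or version 10.7.3.1 (arrays 3 and 4, slide 2). The processed intensity of each channel had been background-subtracted and normalized for dye by the authors, and the deposited raw mean, background and background-subtracted intensities were used for alternatives only. The dye entries of the reverse arrays repeat those of the forward arrays, and these arrays were turned over as their name states.

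Outlier spots were left out, spots of a probe were averaged, and the log2 ratios (line over control) of the forward and of the reverse arrays were averaged apart before the mean of both was taken. The brightest probe stood for its gene. Channels of different arrays were compared on the Aquantile scale. Where no array showed a line well above background, the change is given as a bound against the lowest signal well above background. The bound holds on the scale of the processed signals only. Names are those of the files. All 6 genes matched the RefSeq table for GRCh38.p14, and 5 had promoter entries.

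Each line is 1 sample, so no test across samples was run and genes were called by the 2-fold rule on the whole array. The 3-way ANOVA and limma on the arrays were alternatives. The copper genes and the lists were chosen with earlier results of these data known. Genes named are the 6 genes, list genes that passed in a line, SOD1, SP1, MTF1 and COX17, the 9q32 neighbours that passed or lay next to SLC31A1 and SLC31A2, and the 3 genes most like each changed gene. LRRC8A, which passed in neither line, was named as well. The number of arrays limits the precision. The steps were tested on simulated data. The software was limma 3.58.1 under R 4.3.3, with scipy 1.17.1, pandas 2.3.3, numpy 2.4.6 and, for the plots, matplotlib 3.10.9 under Python 3.11.15.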

Additional observations from a re-analysis of the deposited data

Results flagged for a closer look

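The 4 log2 ratios of SLC31A2 in A2780CBNDXL lay close together, and array 2, at -1.20, stood apart from the other values of -1.33 to -1.31. Its gap to the nearest value made up 0.867 of the range and was past the 95% limit of Dixon's test for 4 values. Of 18 series of 4 values tested this was the only one past the limit, and chance alone marks about 1 in 20.

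Of the 24 genes checked, which are the 6 copper genes and the list genes named, 4 had ratios above 0 on all arrays of one line and below 0 on all arrays of the other. The share of all genes tested with such signs was not determined, so the count cannot be called high or low. Apart from SOD1, SP1, MTF1 and COX17, the list genes checked were those that had passed the 2-fold rule in a line. The mean log2 ratio of A2780CBNDXL minus that of A2780CBN was 1.89 for HEPH, -3.40 for LRRC8C, -3.89 for PAM and -0.47 for SOD1. The difference was not tested for any of these genes. The other HEPH probe gave 0.34 in A2780CBN, where the mean over its probes was 0.03. In A2780CBNDXL the line was not above background for LRRC8C. Against the other line's control SOD1 had -0.07 in A2780CBN and 0.11 in A2780CBNDXL, and LRRC8C had -1.19 and -1.89. Among the list genes outside the rule for names, chosen after their values were seen, SCO2 had mean log2 ratios of -0.54 and 0.44, CLU of 0.81 and -0.44 and XIAP of -0.42 and 0.26 in A2780CBN and A2780CBNDXL, also with opposite signs on all arrays and not tested.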

How the results depend on the processing

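No paired analysis was possible because each line is 1 sample. With each array left out in turn, the count of changed copper genes stayed at 0 in A2780CBN and at 2 in A2780CBNDXL. ANOVA and limma on the arrays also gave 0 and 2, without a test across cultures. With normexp and loess in place of the authors' processing, 607 genes were changed in A2780CBN and 1175 in A2780CBNDXL, among them 3 and 7 of the list genes and 0 of the 6 genes in A2780CBNDXL. A 3-fold limit gave 1127 and 1471 genes, 4 and 8 list genes and 0 of the 6 genes. A 1.5-fold limit gave 4868 and 5713 genes, 5310 between the line channels with 4 of the 6 genes, and 2222 between the control channels with 1 of them. Against the other line's control 0 of the 6 genes passed in A2780CBNDXL, and LOX in A2780CBN reversed to -1.04. With the mean over probes, 1 of the 6 genes, SLC31A1 at -1.05, passed between the line channels. On slide 2 alone 1 gene passed between the line channels, SLC31A2 at -1.08, and 1 between the control channels, ATP7A at 1.06. The cause was not tested in any of these cases. All other 104 counts lay within 1.5 times the reported ones, and of 850 values of single genes 64 moved by more than their SD. The 850 include values under other fold limits and other filters on dim probes, settings that cannot change a ratio. The shares of the 850 given here therefore understate the dependence on the processing. The sign turned in 23 of the 850 values, 10 of these against the other line's control, and LOX in A2780CBN was the only value among the 23 that had passed the rule. Low signals limit ATP7A, LRRC8C and CP. Control signals were also low for LOX, SOD3 and LOXL4 in A2780CBN, at 20.6, 42.2 and 73.5. In A2780CBNDXL they were low for LOXL4 and HEPH, at 55.6 and 86.6, and LOXL1 had 57.5 in the line channel.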
